A study of Mus musculus with 6 samples.

Results

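The 7 cell-surface receptor genes described here were chosen by name from the deposited table of 53647 features: Cntfr, Il11ra1, Il7r and Prlr for cytokines and prolactin, Npr2 and Npr3 for natriuretic peptides, and Lpar1 for lysophosphatidic acid. Each of the 7 has a row under its Ensembl identifier. The libraries came from D2.OR, an established mouse mammary carcinoma line used as a model of dormant tumour cells, and all cells carried a lentivirus and had been selected with puromycin. The 3 shSLX4IP libraries came from cells with a hairpin against Slx4ip, which encodes a partner of the nuclease scaffold SLX4, and the 3 Scram libraries from cells with a scrambled hairpin. Both were kept for 7 days in 3D culture on a basement membrane extract (Cultrex), plated at 31500 cells per cm2 in medium with 10% serum and 5% Cultrex. The libraries thus compare cells with either hairpin after 7 days of 3D culture. The labels name 1 hairpin per group and no clone. They call the replicates biological without saying whether they were separate cultures, so the p-values measure the spread between these libraries, part of which may be technical.

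CNTFR and IL11RA bind ciliary neurotrophic factor and interleukin 11 and signal through the shared receptor chain gp130 to JAK kinases and STAT transcription factors. IL7R is the interleukin 7 receptor of lymphocytes, and PRLR drives milk gene expression in the mammary gland through JAK2 and STAT5. NPR2 is the receptor for C-type natriuretic peptide and makes cyclic GMP, whereas NPR3 removes natriuretic peptides from the cell surface. LPAR1 is a G-protein-coupled receptor through which lysophosphatidic acid promotes motility and growth of many cell types.

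Gene names cannot be trusted in most of the table. Outside 4 chromosome segments with dense high values, 42 of 80 ribosomal protein genes, which every cell uses, were at 0 in all libraries. Only the segments are read by gene name here. They were chosen for their high values, so high values inside them are no check of the names there. Cntfr, Il11ra1, Npr2 and Lpar1 lie in the segment on chromosome 4 (3574875 to 59904737), and Il7r, Prlr and Npr3 in that on chromosome 15 (9071260 to 38692446, both GRCm38). Slx4ip itself lies outside, so the knockdown could not be checked, nor could the cell line be checked by epithelial markers, of which 1 of 5 (Grhl2) lies inside. Recovered depth was 5433573 to 6693111 reads per library. Scram A stood apart, with 8464 features above 0 against 10548 to 11611 in the other libraries, and calls of named genes that turn without it are given below. Its size factor also scaled it up, with 1 recovered read counted as 1.46 normalised reads, against 0.796 to 0.976 in the other libraries. Values of a group are given for its libraries A, B and C in that order.

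Sequences are shown for the genes whose reading depends on them. Il11ra1 has near-identical copies further along chromosome 4, Il11ra2 and Gm13305. Over the 1299 coding bases of Il11ra2, Il11ra1 differed at 13 positions (99.0% identity), and Gm13305 was identical to Il11ra2. Of all 50-base stretches in coding transcripts of Il11ra1, 40.1% occurred in Gm13305 and 29.6% in Il11ra2, so reads from those stretches cannot be assigned to 1 gene. The 60 coding bases at positions 645 to 704, counted from the start codon of Il11ra2 and read from the GENCODE M21 transcripts, show a stretch that does separate Il11ra1 from the copies, at the positions in capitals.
Il11ra1: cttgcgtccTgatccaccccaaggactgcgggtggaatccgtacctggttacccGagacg
Gm13305: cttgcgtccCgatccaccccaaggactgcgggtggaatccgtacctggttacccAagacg
Il11ra2: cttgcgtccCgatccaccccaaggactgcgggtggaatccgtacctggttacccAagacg

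The windows around the start of Cntfr and Lpar1, the receptor genes that passed the test of group difference, are shown because the changes ran in opposite directions. They span 250 bases before to 50 after a RefSeq start (GRCm38.p6), the start nearest to that of a principal GENCODE transcript. All 7 genes had such a window. Both are on the minus strand, at chr4:41695404-41695703 for Cntfr and chr4:58553244-58553543 for Lpar1, written 5′ to 3′ along the gene. Capitals mark GGGCGG, the GC box, on either strand.
Cntfr: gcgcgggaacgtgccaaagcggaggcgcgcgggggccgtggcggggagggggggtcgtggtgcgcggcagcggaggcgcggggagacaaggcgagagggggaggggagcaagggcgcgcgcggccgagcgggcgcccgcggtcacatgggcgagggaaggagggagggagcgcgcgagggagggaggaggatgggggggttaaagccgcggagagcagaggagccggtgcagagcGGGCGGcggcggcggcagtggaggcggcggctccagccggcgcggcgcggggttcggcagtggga
Lpar1: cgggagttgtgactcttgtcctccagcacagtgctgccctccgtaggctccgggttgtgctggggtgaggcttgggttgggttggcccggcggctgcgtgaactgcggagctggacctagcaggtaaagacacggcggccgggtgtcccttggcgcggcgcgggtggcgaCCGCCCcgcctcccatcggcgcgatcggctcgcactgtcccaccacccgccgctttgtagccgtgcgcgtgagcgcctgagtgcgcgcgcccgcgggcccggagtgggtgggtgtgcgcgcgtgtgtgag
Both windows were rich in CG dinucleotides, with 45 in Cntfr and 37 in Lpar1 against a median of 7 over 32851 windows of all genes. The GC content was 78.7% in Cntfr and 71.7% in Lpar1, against a median of 52.7%. Each held 1 GC box, as did 35.7% of all windows. The letters TATAAA (13.6% of all windows), CCAAT (37.4%) and TTCNNNGAA, the form of a STAT site (8.30%), were searched on both strands and do not occur in either. These matches describe the letters and do not show binding.

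The 7 receptor genes differed widely in level, and 4 had a mean of at least 10 normalised reads and could be tested. Of these 4, Cntfr rose and Lpar1 fell in shSLX4IP cells, whereas Il11ra1 and Npr2 did not pass the test. The test was limma on log2(value + 1), with p adjusted by the Benjamini-Hochberg method over all 8127 features and a threshold of 0.05. Under this rule 11.7% of all features were called higher and 11.3% lower, or 23.0% in either direction. Inside the segments 41.1% of 431 features were called, so 2 called genes of 4 is close to the share there. Inside the segments 18.3% were called higher and 22.7% lower. Log2 fold changes had a median of 0.25 for the whole table and -0.15 for the segments. These are bulk libraries, in which fewer cells expressing a gene and less RNA per cell cannot be told apart.

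**Figure D1:**
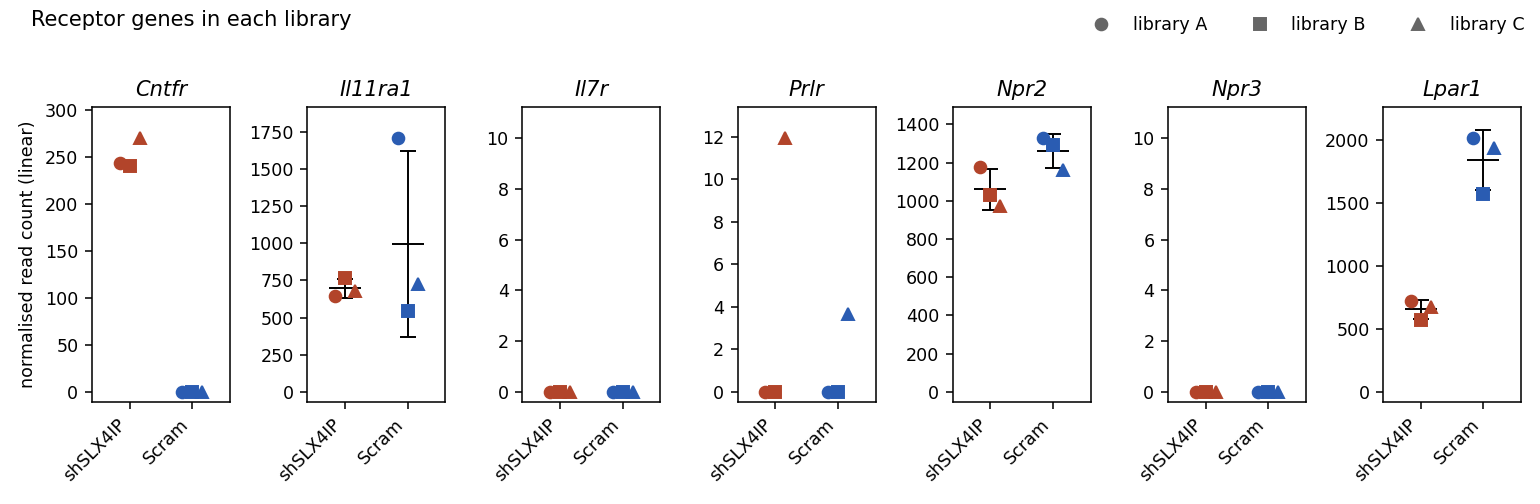
Normalised read counts (linear axes, one scale per gene) of the 7 receptor genes in the 3 shSLX4IP and 3 Scram libraries; bars are mean ± SD (n = 3) and are drawn only for genes above 0 in every library. Cntfr is at 240 to 270 in shSLX4IP and listed at 0 in Scram, Lpar1 is at 572 to 719 in shSLX4IP and 1570 to 2018 in Scram, and Il7r and Npr3 are listed at 0 throughout.

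**Figure D2:**
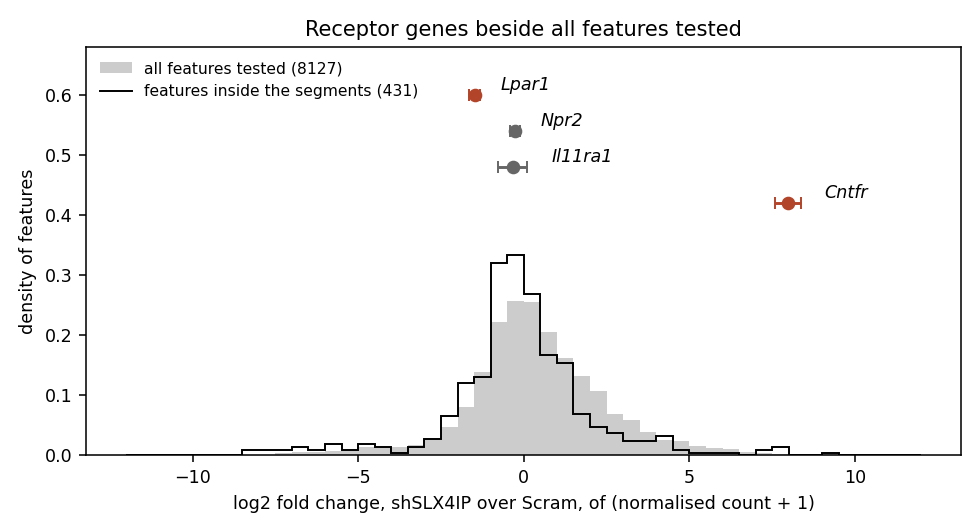
Distribution of log2 fold changes (shSLX4IP over Scram) for all 8127 features tested (grey) and the 431 inside the segments (black line), with the 4 tested receptor genes above as points with their standard error (red where the adjusted p passed; their height has no meaning). Cntfr lies in the far upper tail, at a place that follows the pseudocount because Scram was listed at 0, Lpar1 below most features, and Il11ra1 and Npr2 near the centre.

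Among the cytokine receptors, Cntfr (ENSMUSG00000028444.18, chromosome 4, 41657498 to 41697089) had reads in shSLX4IP cells and none in Scram cells. It encodes the ligand-binding subunit for ciliary neurotrophic factor, which is held at the membrane by a lipid anchor and has no kinase or signalling tail of its own. Its values were 244, 240 and 270 normalised reads in shSLX4IP, and it was listed at 0 in Scram. These are 269, 246 and 339 recovered reads in shSLX4IP, against 0 in each Scram library, and the groups did not overlap. The difference passed (limma adjusted p = 0.000336). No fold is given because every Scram library was listed at 0, and the fitted value that the plots show follows the pseudocount and the test. Its call held in each of 18 other settings, with adjusted p no higher than 0.00474. These settings add little, because scaling by a factor cannot move a 0. Leaving out any Scram library left the fitted value unchanged. Cntfr also reached the mean of 10 needed for testing through the shSLX4IP libraries alone. The level was modest. At 90.3 normalised reads per kb of exon in shSLX4IP cells, and with none in Scram, its mean over the 6 libraries was above that of 17.4% of the tested features in the segments. No 50-base stretch of its coding transcripts occurs in another annotated transcript, and its exons overlap no other gene in the table.

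Il11ra1 (ENSMUSG00000073889.11, chromosome 4, 41699989 to 41769474), the interleukin 11 receptor gene that lies next to Cntfr, was expressed in both groups. Its values were 645, 766 and 678 in shSLX4IP, against 1707, 546 and 725 in Scram. In normalised reads Scram A was more than 2 times any other library, and the remaining 5 overlapped. In recovered reads Scram A held 1166, against 584 to 852 in the other libraries. The means were 697 ± 62.7 in shSLX4IP and 993 ± 626 in Scram (SD, n = 3 each), with a log2 fold change of -0.34 (SE 0.44, 95% interval -1.42 to 0.75, limma adjusted p = 0.576). Without Scram A it was 0.14 (adjusted p = 0.496), so its sign rests on that library. That interval is wide on both sides of 0. No change was detected, and these libraries cannot exclude changes within it in either direction.

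The copies of Il11ra1 described above contributed few assigned reads. No library held a read for Il11ra2 (chromosome 4, 42656355 to 42661893). Gm13305 (chromosome 4, 42158842 to 42168603) had 0, 0 and 14.3 normalised reads in shSLX4IP, against 24.9, 17.7 and 13.7 in Scram. It did not pass (limma adjusted p = 0.132), but did in 1 of 17 other settings. How the counting treated reads that match several copies is not given in the sources used here, so the level of Il11ra1 is uncertain in both groups. The annotated span of Il11ra1 also encloses Dctn3, Rpp25l, Arid3c and Galt among others. None of these shares an exonic base with it, and Ccl27a, a chemokine gene at its end, shares 8.

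Il7r (ENSMUSG00000003882.6, chromosome 15, 9505788 to 9530176), the interleukin 7 receptor gene, was at 0 in each of the 6 libraries. Of 10 lymphocyte marker genes considered beside it, 7 (among them Ptprc, Cd3e, Cd3g, Lck, Cd79a and Cd79b) lie outside the segments and could not be read, and 3 could. Cd72, a B-cell surface gene, was at 6.34, 9.76 and 24.7 in shSLX4IP, against 26.4, 58.9 and 37.4 in Scram (adjusted p = 0.112). The B-cell regulator Pax5 was at 17.2, 3.90 and 4.78, against 26.4, 34.6 and 26.4 in Scram (adjusted p = 0.0834). Both were low in every library and neither passed. Pax5 did pass without shSLX4IP A (limma adjusted p = 0.0439) and after removal of the trend with exonic length (0.0185). Both passed in DESeq2 (0.0466 for Cd72 and 0.0312 for Pax5) and after quantile normalization (0.0298 and 0.0223). Bach2, a transcription factor of lymphocytes that other cells express as well, was at 690, 793 and 906 in shSLX4IP, against 99.6, 194 and 155 in Scram, and rose (log2 fold change 2.45, SE 0.30, adjusted p = 0.00415). Summed over the 3 markers, the level was 714 to 935 in shSLX4IP and 152 to 288 in Scram, most of it Bach2.

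Prlr (ENSMUSG00000005268.21, chromosome 15, 10177238 to 10349180), the prolactin receptor of mammary epithelium, was close to absent from the libraries. It was at 0, 0 and 11.9 normalised reads in shSLX4IP, against 0, 0 and 3.65 in Scram. This is 15 recovered reads in shSLX4IP C and 4 in Scram C. The groups overlapped at 0, and the exact 2-sided permutation test gave p = 1. That outcome followed from the zeros, with a single library above 0 in each group, so the test decides nothing. Even without ties, 3 libraries against 3 cannot give less than 0.1. Milk and luminal genes (Csn1s1, Csn2, Wap, Elf5 and Gata3) lie outside the segments and could not be read beside it.

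The natriuretic peptide receptors split into a gene with reads and a gene listed at 0. Npr2 (ENSMUSG00000028469.16, chromosome 4, 43631935 to 43651244), the guanylyl cyclase for C-type natriuretic peptide, was at 1179, 1031 and 973 in shSLX4IP, against 1330, 1290 and 1164 in Scram. The highest shSLX4IP library overlapped the lowest Scram library by a small margin. The means were 1061 ± 107 in shSLX4IP and 1261 ± 86.5 in Scram (SD, n = 3 each). The log2 fold change of -0.25 (SE 0.15, 95% interval -0.62 to 0.12) did not pass (limma adjusted p = 0.258). It stayed unpassed in each of 18 other settings, and its sign turned when reads were scaled by recovered depth (0.09) or quantile normalised (0.03). Of its exonic bases, 5.70% overlap Gm12473 on the other strand, which was itself at 24.9 to 82.2 normalised reads across the libraries.

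Npr3 (ENSMUSG00000022206.8, chromosome 15, 11839896 to 11907287), the clearance receptor, was at 0 in each of the 6 libraries. The nearest genes beside Il7r, Prlr and Npr3 were picked among those with a mean of at least 10, so that they carried reads is no finding. Sub1, a transcriptional coactivator gene 74.1 kb from Npr3, was at 1321, 1294 and 1145 in shSLX4IP, against 7760, 2732 and 3149 in Scram. Dnajc21, a ribosome assembly chaperone gene 97.6 kb from Prlr, was at 936, 1075 and 1059 in shSLX4IP, against 1965, 1289 and 1351 in Scram. Lmbrd2, 303 kb from Il7r, was at 2837 to 2970 in shSLX4IP and 2150 to 3718 in Scram.

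Lpar1 (ENSMUSG00000038668.15, chromosome 4, 58435255 to 58553898), a receptor for lysophosphatidic acid, fell in shSLX4IP cells. Its values were 719, 572 and 677 normalised reads in shSLX4IP, against 2018, 1570 and 1934 in Scram. In recovered reads these are 794, 586 and 850, against 1378, 1681 and 2122, so Scram A was highest of its group only after normalisation. The highest shSLX4IP library lay below the lowest Scram library by more than a factor of 2 in normalised reads. The groups did not overlap, as in 53.5% of all features tested and 67.5% of those in the segments. The means were 656 ± 75.8 in shSLX4IP and 1841 ± 238 in Scram (SD, n = 3 each), a ratio of 0.356. The log2 fold change was -1.49 (SE 0.18, 95% interval -1.92 to -1.05, limma adjusted p = 0.00386). It lay between -1.60 and -1.14 over 18 other settings and passed in each. The smallest difference came with reads scaled by recovered depth, a scaling in which the median of the segments stood at 0.19. Lpar1 shares no exonic base with a neighbour and no 50-base stretch with another transcript.

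**Figure D3:**
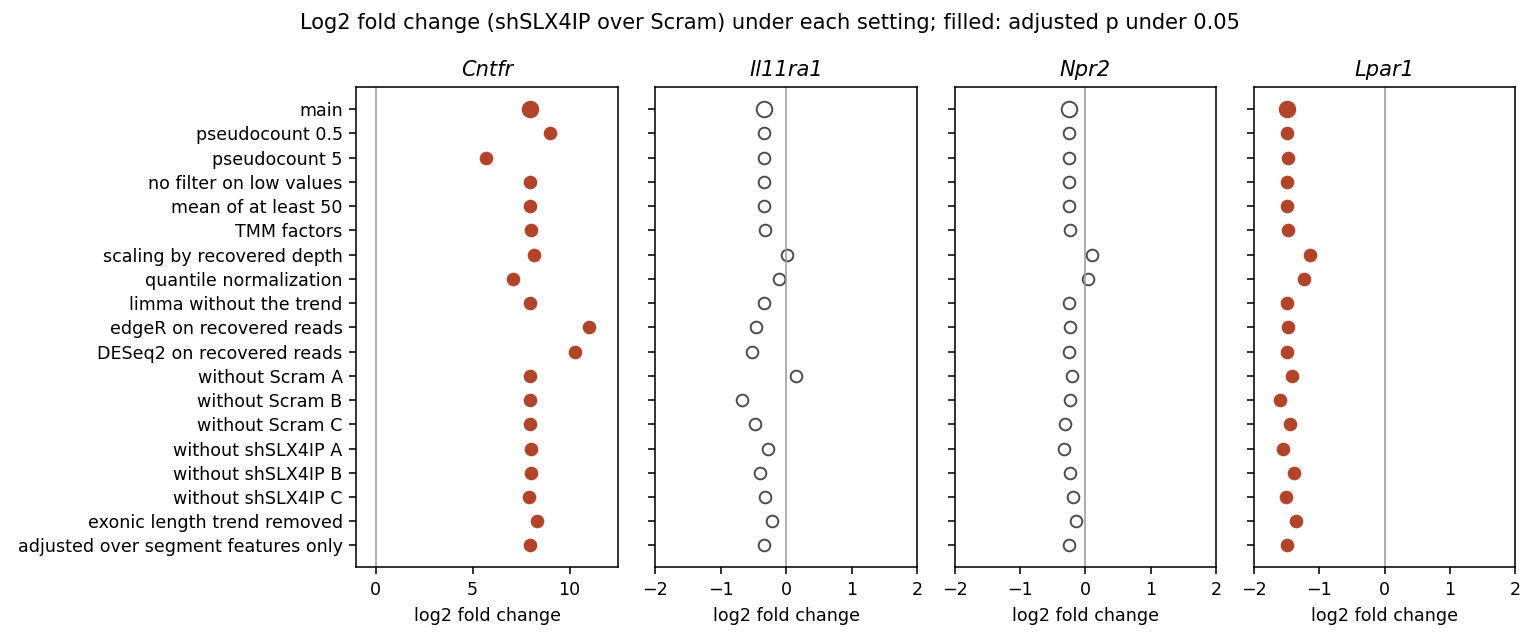
Log2 fold change (shSLX4IP over Scram) of the 4 tested receptor genes in the main test and 18 other settings, filled where the adjusted p was under 0.05. Cntfr and Lpar1 are filled in every row, with Lpar1 between -1.60 and -1.14; Il11ra1 and Npr2 are open in every row and cross 0 in some. The Cntfr axis differs from the rest, and its position follows the pseudocount because Scram was listed at 0.

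Per kb of exon, which allows levels of different genes to be set side by side, the order differed between the groups. In shSLX4IP cells Npr2 was highest at 227 normalised reads per kb, followed by Il11ra1 at 156, Lpar1 at 153 and Cntfr at 90.3. In Scram cells Lpar1 was highest at 429, followed by Npr2 at 270 and Il11ra1 at 222, with Cntfr listed at 0. The Scram level of Il11ra1 rests on Scram A and was 142 without it. Il11ra1 and Lpar1 were neighbours in the shSLX4IP order and did not differ there beyond the spread of their libraries. Prlr was at 0.260 in shSLX4IP and 0.0792 in Scram. Levels per kb use all annotated exons, so a gene expressed from a shorter transcript is understated.

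Most partners of these receptors could not be read. Of 45 other genes of cytokine receptor and JAK-STAT signalling, the 1 inside the segments was Il11ra2. None of 16 natriuretic peptide and cyclic GMP genes lay inside. Of 22 genes of lysophosphatidic acid signalling 1 did, Rock1, a kinase downstream of RhoA, at 4736, 4450 and 4375 in shSLX4IP, against 2255, 5298 and 4695 in Scram (log2 fold change 0.24, adjusted p = 0.609). Without Scram A its log2 fold change was -0.14.

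Another 14 surface receptor genes were chosen for lying in the segments, and 4 of the 14 were tested. Smo, the transducer of Hedgehog signals, was at 10464, 10396 and 10163 in shSLX4IP, against 5105, 7533 and 6442 in Scram, and rose (log2 fold change 0.72, SE 0.17, adjusted p = 0.0321). It was no longer past the threshold in 8 of 18 other settings, including those without Scram C or 1 of the shSLX4IP libraries (adjusted p 0.0937 to 0.124). The Wnt receptor gene Fzd8 was listed at 0 in each shSLX4IP library, against 146, 123 and 153 in Scram, and fell (adjusted p = 0.000464). Tgfbr1 and Met, receptors for TGF-beta and hepatocyte growth factor, had log2 fold changes of 0.40 and 0.49 and did not pass (adjusted p = 0.228 and 0.179). The other 10, among them the neural receptors Cnr1, Gabbr2, Gabrr1 and Grm8, were at 0 or under 10 on average, and 4 of them (Calcr, Epha7, Gpr37 and Grm8) were listed at 0 in all 6 libraries. Of 4 mesenchymal markers 2 lay inside, and they differed in opposite directions. Col1a2, a fibrillar collagen gene, was at 273, 302 and 239 in shSLX4IP, against 20226, 24482 and 25022 in Scram, and fell. Zeb1 was at 1442, 1484 and 1423 in shSLX4IP, against 349, 961 and 760 in Scram, and did not pass (log2 fold change 1.19, adjusted p = 0.0798). Zeb1 passed in 6 of 18 other settings, including those without Scram A (0.76, adjusted p = 0.00714) and without Scram B (1.49, adjusted p = 0.0487). The summed level of the 2 markers was 1662 to 1786 in shSLX4IP, mostly Zeb1, and 20574 to 25782 in Scram, nearly all Col1a2. The sum thus follows Col1a2 and is no measure of a mesenchymal state. Any part of either marker in the fall of Lpar1 was not tested. Grhl2, the epithelial marker, did not pass either (adjusted p = 0.177).

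The nearest genes were taken by the midpoint of the annotated span among those with a mean of at least 10, and did not all move with the receptor. By this rule Cntfr stands between Enho and Rpp25l, although Il11ra1, whose span encloses Rpp25l, starts closer to it. Enho, which encodes the secreted peptide adropin, was at 29.9, 38.1 and 23.9 in shSLX4IP, against 0, 3.74 and 5.47 in Scram (adjusted p = 0.0392). It missed the threshold in 8 of 17 other settings, including those without Scram B, Scram C or 1 of the shSLX4IP libraries (adjusted p 0.0521 to 0.128). Rpp25l was at 604, 629 and 510 in shSLX4IP, against 3772, 1057 and 1372 in Scram (adjusted p = 0.0668). It passed in 7 of 18 other settings, including those without Scram A (adjusted p = 0.0067) and without Scram B (0.046). Beside Il11ra1, Dctn3, a dynactin subunit gene, was at 2116, 2392 and 2200 in shSLX4IP, against 8528, 2564 and 3013 in Scram, and did not pass (adjusted p = 0.226). Scram A was its highest library, as it was for Il11ra1.

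**Figure D4:**
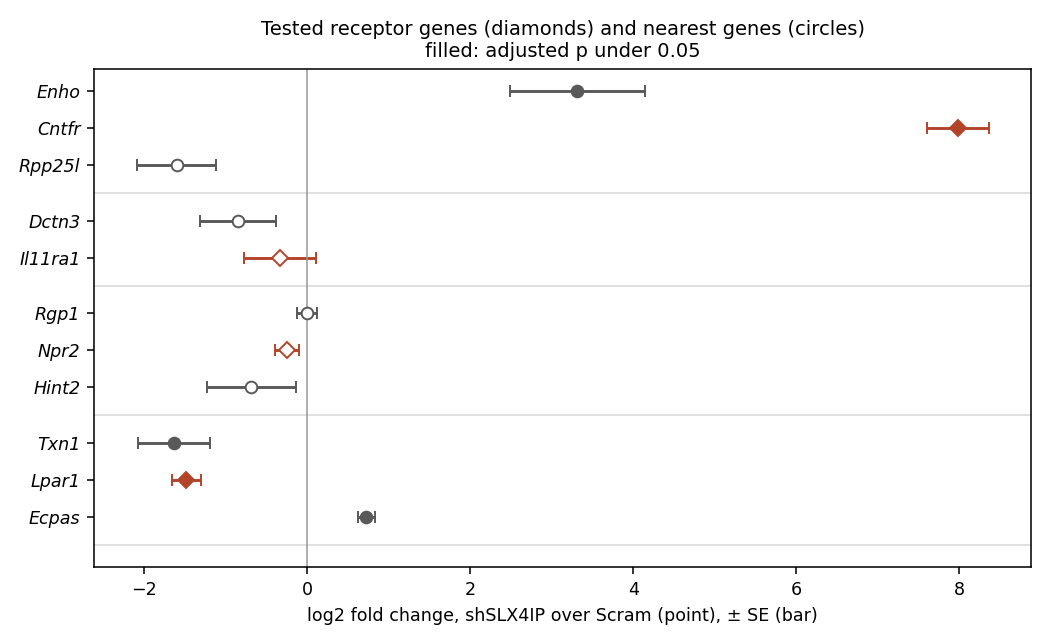
Log2 fold change (shSLX4IP over Scram, point) with its standard error (bar) for the 4 tested receptor genes (diamonds) and the nearest genes by midpoint with a mean of at least 10 (circles; on each side, but on 1 side only for Il11ra1), filled where the adjusted p was under 0.05. Lpar1 at -1.49 stands between Txn1 at -1.64 (479 kb away) and Ecpas at 0.72 (245 kb away). Cntfr, whose place follows the pseudocount, stands between Enho at 3.31 and Rpp25l at -1.60.

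Neither Rgp1 nor Hint2, beside Npr2, passed (adjusted p = 0.984 and 0.379). On the sides of Lpar1 the directions differed, but the genes taken there, Txn1 and Ecpas, lie 479 and 245 kb from it. Musk, with a mean under 10, lies between Txn1 and Lpar1. Txn1, the thioredoxin gene, was at 13937, 13000 and 12837 in shSLX4IP, against 83723, 26780 and 31173 in Scram (adjusted p = 0.0477). It missed the threshold in 7 of 18 other settings, including those without Scram C or 1 of the shSLX4IP libraries (adjusted p 0.0849 to 0.158). Ecpas, a proteasome adaptor gene, rose to 11698, 11555 and 11109, against 6758, 7324 and 6773 in Scram (log2 fold change 0.72, SE 0.10, adjusted p = 0.00672). Its call held in 15 of 18 other settings. It was lost without shSLX4IP A or B (0.0515 and 0.0533) and in limma without the trend (0.0569). Tars, 440 kb from Npr3 and encoding threonyl-tRNA synthetase, fell (log2 fold change -1.80, SE 0.22, adjusted p = 0.00390). Sub1 passed as well (log2 fold change -1.70, adjusted p = 0.0359), and in 13 of 18 other settings. It did not without Scram C or 1 of the shSLX4IP libraries (adjusted p 0.0704 to 0.131), or in limma without the trend (0.0546). Lmbrd2 and Dnajc21 did not pass (adjusted p = 0.911 and 0.107). Without Scram A both did, with log2 fold changes of -0.27 and -0.37 (adjusted p = 0.0373 and 0.0287), and Dnajc21 also passed in DESeq2 (0.0243).

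The genes in the segments whose values over the 6 libraries ran most like each receptor were found by Pearson correlation of log2 values, given as a description because all 6 points share the split into groups. For Cntfr they were Cped1, Fam71f1 and the homeobox gene Dlx5 (r = 1.00, 1.00 and 0.999), each listed at 0 in Scram. For Lpar1 they were Tdrd7, the focal adhesion gene Tes and the glycosyltransferase gene Galnt12 (r = 0.995, 0.994 and 0.992), all lower in shSLX4IP. The sizes differed. Galnt12 was at 23.6, 13.7 and 18.3 in shSLX4IP, against 1561, 1050 and 1102 in Scram. Tes had a log2 fold change of -0.87 (adjusted p = 0.00395) and Tdrd7 of -0.41. Tes did not pass after quantile normalization (-0.22, adjusted p = 0.501) or with scaling by recovered depth (-0.53, adjusted p = 0.0684). Tdrd7 passed by little (adjusted p = 0.0483), missed the threshold in 11 of 18 other settings, among them each that left out 1 library except Scram A (0.0619 to 0.169), and turned sign after quantile normalization. For Il11ra1 they were Zcchc7, Gng10 and Akirin2 (r = 0.988, 0.980 and 0.977). None passed the test, and each was highest in Scram A in normalised but not in recovered reads. After removal of the trend with exonic length, Akirin2 passed in the opposite direction (0.36, adjusted p = 0.0299). For Npr2 they included Pax5 and Osgin2 (r = 0.916 and 0.907), and Osgin2 was called lower (adjusted p = 0.0289), as in 11 of 18 other settings. It was not without Scram C or 1 of the shSLX4IP libraries (adjusted p 0.0635 to 0.103). Nor was it without the filter (0.0521), with scaling by recovered depth (0.0636) or in limma without the trend (0.0556).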

How the data were processed

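Per the labels' protocols, 6 stranded mRNA libraries were built, each with 1 µg of input RNA. GRCm38, DESeq2 1.22.1, StringTie 2.1.7, STAR 2.7.7 and fastp 0.19.5 appear in the submitters' processing notes. Tool roles, annotation, strand and multi-mapping settings were not given in the sources used here. Each deposited signal is a read count that the authors divided by a size factor of its library, as its values show. Divided by the value of 1 read, 99.98 to 100% of a library's values above 0 were within 0.1 of a whole number, and whole reads were recovered so. Columns carry letters, labels carry replicate numbers, and the 2 are not tied. Of 53647 identifiers 52094 matched GENCODE M21 without version.

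Segments are runs of protein-coding genes, scored 3 for a mean of at least 1000 and -1 otherwise, with a total of at least 30. The highest other run scored 18. Features with a mean of at least 10 were tested with limma 3.58.1 (R 4.3.3, intensity trend, pseudocount 1, 2-sided). A run of it on simulated reads, scaled by depth and with balanced rises and falls, did not cover the size factor of Scram A. A fold change is shSLX4IP over Scram on the log2(value + 1) scale, which understates low genes. edgeR 4.0.16 and DESeq2 1.42.0 on recovered reads, 2 pseudocounts, 2 filters, 3 scalings, no trend, an exonic length trend removed, adjustment within the segments and leaving out each library gave 18 other settings. edgeR called 712 features higher and 854 lower. The text names the receptors, their copies, nearest genes, the 3 most correlated genes and the listed pathway and marker genes, of which a few are not reported here. Members and lists were chosen with earlier results of these data known.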

Additional observations from a re-analysis of the deposited data

How the results depend on the processing

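Cntfr and Lpar1 kept their direction and call in each of 18 other settings, and Il11ra1 and Npr2 were past the threshold in none. For Cntfr the zeros in Scram left the settings little room to change the call. Without 1 library, the log2 fold change was -1.60 to -1.39 for Lpar1, -0.68 to 0.14 for Il11ra1 and -0.33 to -0.19 for Npr2. The fitted value of Cntfr, listed at 0 in Scram, was 5.68 with a pseudocount of 5 and 11.03 in edgeR, and is no measure of its size. Scaling by recovered depth and adjustment within the segments were chosen after the values were seen. With reads scaled by recovered depth, the log2 fold change was 0.0079 for Il11ra1 and 0.093 for Npr2. The median was 0.58 over all features and 0.19 in the segments. Quantile normalization gave 0.032 for Npr2, against a median of -0.0028 over all features and 0.10 in the segments. In the same 2 scalings the sign also turned for Lmbrd2 (0.31 and 0.45), Rgp1 (0.34 and 0.35), Zcchc7 (0.14 and 0.083), Gng10 (0.22 and 0.33) and Akirin2 (0.30 and 0.35), and after quantile normalization for Tdrd7 (0.11). TMM factors gave 0.0087 for Rgp1. With the exonic length trend removed, Gng10 was at 0.29, Akirin2 at 0.36 (adjusted p = 0.0299) and Rock1 at -0.19. Leaving out 1 library gave ranges of -0.27 to 0.12 for Lmbrd2, -0.046 to 0.047 for Rgp1, -0.35 to 0.012 for Zcchc7, -0.32 to 0.11 for Gng10, -0.15 to 0.12 for Akirin2 and -0.14 to 0.47 for Rock1. Scaling by recovered depth changes all values of a library by the same factor. With it the median of the segments went from -0.15 to 0.19, and Lpar1 from -1.49 to -1.14. The cause of the turns was not tested.

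Over all features 952 were called higher and 920 lower, and DESeq2 called 1602 and 1624. Without 1 library the counts were 433 to 1895 higher and 410 to 1573 lower, highest without Scram A. With the length trend removed, or adjusted within the segments, counts over all features have no value. No paired analysis was possible because the columns carry letters and not the replicate numbers of the labels. Precision is limited by 3 libraries a group, by genes under 10 normalised reads (Prlr, Il7r, Npr3) that were not tested, and by stretches shared between Il11ra1 and its copies.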
